A study of Mus musculus with 24 samples.

Results

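The genes described here are 42 markers of astrocytes, chosen by name among genes whose transcripts are used to recognise these cells in brain tissue. Probes were assigned to a gene through the transcript identifier printed beside each spot, and the probe with the highest mean signal intensity represented the gene. The set therefore held 42 of 23787 named genes, and the probes assigned to these genes in this way numbered 64 of 56605 unique probes. Probes whose identifier had no match were not counted, so a gene can have further probes. All 42 probes gave a signal well above background in both channels of all 24 arrays, none was saturated, and none was missing on an array. The 7 markers most often used to define the cell type (*Gfap*, *Aldh1l1*, *S100b*, *Aldoc*, *Glul*, *Sox9* and *Vim*) were all detected in each animal.

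The tissue was the whole hippocampus of 48 male Swiss-Webster mice aged 12 weeks, analysed without pooling. Treated mice drank corticosterone (100 µg/ml) in water with hydroxypropyl-β-cyclodextrin (0.45%) during the 12 hours of the dark phase, while control mice, their siblings, drank water with the cyclodextrin alone. Samples were taken in the first, the fifth or the ninth hour of the following light phase, with 8 treated and 8 control animals at each of these hours. Each array held 1 control animal labelled with Cy3 and 1 corticosterone-treated animal labelled with Cy5, always in this orientation. The effect of corticosterone and a preference of a probe for one dye cannot be told apart at a single hour, whereas a constant preference cancels where the effect is compared between hours. The 3 slides each held arrays of all hours, and probes well above background made up 60.8 to 67.2% of an array in the Cy3 and 64 to 73.5% in the Cy5 channel. The number of arrays limits the precision of all values below. In RNA of a whole tissue, fewer cells of a type and less RNA per cell cannot be told apart.

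Astrocytes are the glial cells that take up glutamate and potassium released by neurons, convert glutamate to glutamine, enclose blood vessels with their end feet and secrete proteins that shape the extracellular matrix and synapses. Corticosterone, the main glucocorticoid of rodents, acts through the glucocorticoid receptor, a transcription factor that astrocytes contain and that binds DNA at repeats of a short half-site. Marker genes of a cell type move together when its cells or their total RNA become more or less abundant, and they move apart when single genes are regulated. Each array was therefore described first by the median of the whole set and then gene by gene.

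The median log ratio of the set lay within the spread between arrays at each hour. In the treated channel the median level of the set was higher on 6 or more of 8 arrays, a gap also seen for genes of some other cell types. The median log2 ratio of corticosterone over control across the 42 genes averaged 0.040 ± 0.058 (SD, n = 8 arrays) during the first hour and ranged from -0.036 to 0.13. During the fifth hour it averaged -0.0060 ± 0.034 (SD, n = 8) with a range from -0.069 to 0.027. During the ninth hour it averaged 0.023 ± 0.065 (SD, n = 8) with a range from -0.074 to 0.12. The median was above 0 on 6, 5 and 6 of 8 arrays at these hours, and slide 3 held arrays on both sides of 0 at each hour. Over the fold changes fitted for single genes, the median of the set was 0.044 in the first, -0.052 in the fifth and 0.034 in the ninth hour, with 25, 18 and 22 of 42 genes above 0. The fifth-hour median came to 0.00074 without slide 2. Under other choices of processing, slides and probes, the first-hour median ran from 0.0115 to 0.0786. The ninth-hour median ran from -0.0278 to 0.0632 and thus changed sign. The median log2 intensity of the set, which is set by the gene in the middle of each channel and need not be the same gene in both, was higher in the treated than in the control channel on 7, 8 and 6 of 8 arrays at these hours. The difference averaged 0.19 ± 0.12 (log2, SD, n = 8) in the first, 0.085 ± 0.051 in the fifth and 0.069 ± 0.088 in the ninth hour. Such a gap was not particular to this set. In the first hour oligodendrocyte genes went from 11.529 (control) to 11.766 (treated), although their median log ratio averaged -0.135. For neuronal genes this median went from 14.685 to 14.791, for other astrocyte genes from 12.325 to 12.23 and for microglial genes from 10.575 to 10.28. Over all probes the median log2 fold change was -0.00092, 0.00096 and 0.00063 at these hours.

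**Figure D1:**
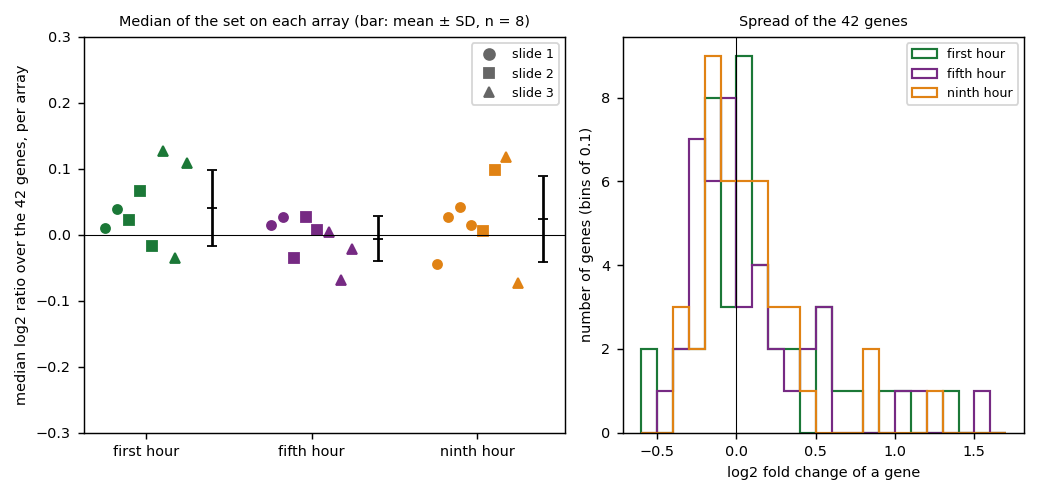
The left panel plots the median log2 ratio of the 42 genes on each of the 24 arrays by hour of the light phase, with the mean and SD of 8 arrays as a bar and the slide as the symbol, and the right panel counts genes by their fitted log2 fold change in bins of 0.1. The array medians stay between -0.074 and 0.13 at all hours, while single genes extend from -0.52 to 1.60.

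Single genes, in contrast, displayed significant differences in both directions. An adjusted p under 0.05 was reached by 22 of 42 genes in the first hour (13 higher and 9 lower in corticosterone-treated animals), by 24 in the fifth hour (13 higher and 11 lower) and by 19 in the ninth hour (13 higher and 6 lower). Of all 56605 probes, 17.5%, 18.1% and 14% passed the same threshold at these hours. Bright probes pass it more often, and of the 9849 named genes with a mean intensity of at least 500, which 40 of the 42 members reach, 27.4%, 27.6% and 20.2% did. In total 28 members differed at 1 hour or more, 11 were higher at all hours, 3 (*Plpp3*, *Cst3* and *Ncan*) were lower at all hours and 14 passed the threshold at none. Among all probes 2.97% were higher and 2.94% lower at all hours, and among the named genes of that intensity 6.77% and 5.98%. Of these calls, those of the ninth hour for *Plpp3* and *Glul* and of the fifth hour for *Aldoc* were lost whichever slide was left out, and all calls of *Cst3* were lost under Aquantile normalization between arrays. *Btbd17* was lower at one hour and higher at another, and each of these calls was kept in 2 of 3 omissions of a slide. When the median of the set was subtracted on each array and the remaining log ratios were tested in limma, 25 genes departed from the set in the first hour (13 higher and 12 lower), 22 in the fifth (11 and 11) and 20 in the ninth (11 and 9), against 18%, 14.8% and 12.1% of all probes. Subtracting the median itself places about as many members above as below 0, so this split is no sign of movement in both directions. The number for the ninth hour fell to 8 without slide 1, on which 4 of its 8 arrays lay.

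**Figure D2:**
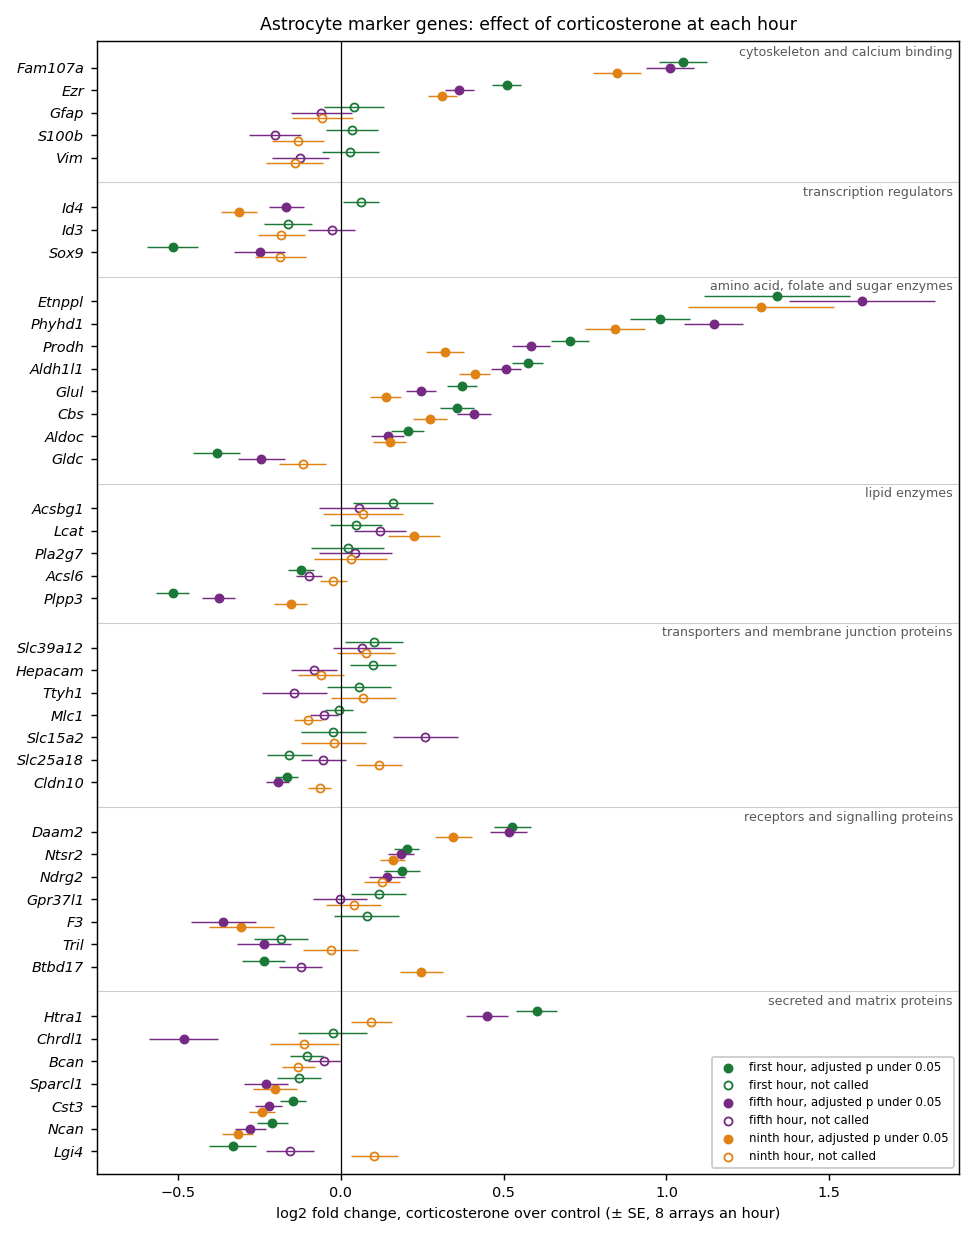
Log2 fold changes of corticosterone-treated over control animals with their SE are plotted for each of the 42 genes at each hour (8 arrays an hour), grouped by the role of the protein, with filled symbols for an adjusted p under 0.05. The enzyme group holds 7 genes higher and *Gldc* lower in the first hour, while transporters and junction proteins stay between -0.17 and 0.10 at that hour.

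The classical structural markers displayed no significant effect of corticosterone. *Gfap*, the intermediate filament protein of astrocytes, had signal intensities between 3103 and 4671 (median 4248) in control and between 3120.0 and 5056 (median 4275) in treated animals during the first hour, and the groups overlapped. Its log2 fold change (± SE of the limma fit, here and below) was 0.040 ± 0.093 (adjusted p = 0.81) in the first, -0.061 ± 0.093 (adjusted p = 0.69) in the fifth and -0.057 ± 0.093 (adjusted p = 0.73) in the ninth hour. *Vim*, another intermediate filament protein, had log2 fold changes of 0.029 ± 0.088 (adjusted p = 0.85), -0.12 ± 0.088 (adjusted p = 0.32) and -0.14 ± 0.088 (adjusted p = 0.27) at these hours. *S100b*, a calcium-binding protein, had values of 0.034 ± 0.079 (adjusted p = 0.81), -0.20 ± 0.079 (adjusted p = 0.054) and -0.13 ± 0.079 (adjusted p = 0.25), and its fifth-hour value passed the threshold in some alternatives, among them Aquantile normalization (adjusted p = 0.027 by limma) and the authors' log2 ratios (adjusted p = 0.0074). At the SE of *Gfap*, changes of the size seen here would not have been detectable.

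Other members of the cytoskeletal group rose. *Fam107a*, an actin-associated protein known to be induced by glucocorticoids, had signal intensities between 5860.2 and 8897 (median 6543) in control and between 12633 and 16036 (median 13931) in treated animals during the first hour. The lowest treated animal thus lay above the highest control animal, and the same held for the fifth and the ninth hour. The log2 fold change was 1.05 ± 0.074 (adjusted p = 1.1e-15) in the first, 1.01 ± 0.074 (adjusted p = 5.7e-15) in the fifth and 0.85 ± 0.074 (adjusted p = 4.1e-12) in the ninth hour, and on 8 of 8 arrays of each hour the treated animal had the higher signal. *Ezr*, which codes ezrin, a protein that links the membrane of fine astrocyte processes to actin, had signal intensities between 2448 and 2865 (median 2648) in control and between 3253 and 4061 (median 3808) in treated animals during the first hour. Its groups did not overlap at any hour, and the log2 fold changes were 0.51 ± 0.044 (adjusted p = 4.3e-13), 0.36 ± 0.044 (adjusted p = 7.3e-09) and 0.31 ± 0.044 (adjusted p = 5.3e-07).

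In the group of 8 metabolic enzymes, which were listed together under amino acid, folate and sugar metabolism although *Etnppl* and *Phyhd1* also bear on lipids, 7 were higher at all hours (6.77% of the named genes with an intensity of at least 500 were), with a median log2 fold change of 0.47 in the first, 0.46 in the fifth and 0.30 in the ninth hour, although the ninth-hour call of *Glul* and calls of *Aldoc* depended on the slides used. Without *Etnppl* and *Phyhd1*, a choice made after seeing the data, 5 of 6 were higher at all hours, with medians of 0.36, 0.33 and 0.21. *Etnppl*, a phospholyase that breaks down phosphoethanolamine, had signal intensities between 423 and 1583 (median 1047) in control and between 1131 and 3648 (median 3171) in treated animals during the fifth hour. The groups overlapped at each hour, and 1 array of the fifth hour had low intensities in both channels (422.9 in control and 1131 in treated), yet on 8 of 8 arrays of each hour the treated animal was the higher one. The log2 fold change of *Etnppl* was 1.34 ± 0.22 (adjusted p = 6.3e-06) in the first, 1.60 ± 0.22 (adjusted p = 2.3e-07) in the fifth and 1.29 ± 0.22 (adjusted p = 3.8e-05) in the ninth hour. *Phyhd1*, a dioxygenase of the family that includes phytanoyl-CoA hydroxylase, had signal intensities between 2996 and 4042 (median 3589) in control and between 6709.7 and 9463 (median 8055) in treated animals during the fifth hour. Its groups were separate at all hours, and the log2 fold changes were 0.98 ± 0.091 (adjusted p = 1e-11), 1.14 ± 0.091 (adjusted p = 1.3e-13) and 0.84 ± 0.091 (adjusted p = 3.2e-09).

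*Prodh*, the mitochondrial enzyme that starts the breakdown of proline, had signal intensities between 1359.9 and 1724 (median 1538) in control and between 2185 and 2666 (median 2504) in treated animals in the first hour. The groups were separate in the first and the fifth hour and overlapped in the ninth, and the log2 fold change declined from 0.70 ± 0.058 (adjusted p = 2.3e-13) to 0.58 ± 0.058 (adjusted p = 9.3e-11) and 0.32 ± 0.058 (adjusted p = 7.5e-05). *Aldh1l1*, the folate enzyme that serves as a general astrocyte marker, had signal intensities between 4590.3 and 5159 (median 4905) in control and between 6527 and 8458 (median 7261) in treated animals in the first hour. No control animal reached the lowest treated animal at any hour, and the log2 fold changes were 0.57 ± 0.047 (adjusted p = 9.2e-14), 0.51 ± 0.047 (adjusted p = 5.4e-12) and 0.41 ± 0.047 (adjusted p = 4.2e-09). *Glul*, the glutamine synthetase that turns glutamate into glutamine, had signal intensities between 22075 and 28145 (median 23919.7) in control and between 28667 and 35023 (median 30978) in treated animals in the first hour, with no overlap. In the fifth and the ninth hour its groups overlapped, and the log2 fold change was 0.37 ± 0.047 (adjusted p = 1.6e-08) in the first, 0.25 ± 0.047 (adjusted p = 6.2e-05) in the fifth and 0.14 ± 0.047 (adjusted p = 0.026) in the ninth hour. The ninth-hour call of *Glul* was kept in 0 of 3 omissions of a slide (adjusted p by limma 0.058 to 0.36).

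The other 3 enzymes of this group moved in both directions. *Cbs*, which joins serine and homocysteine, rose by log2 fold changes of 0.36 ± 0.052 (adjusted p = 4.9e-07), 0.41 ± 0.052 (adjusted p = 2.9e-08) and 0.27 ± 0.052 (adjusted p = 9.9e-05), with higher signals in treated animals on all 8 arrays of each hour and separate groups in the fifth and the ninth. *Aldoc*, the aldolase of brain glycolysis, rose by 0.21 ± 0.051 (adjusted p = 0.0016), 0.14 ± 0.051 (adjusted p = 0.028) and 0.15 ± 0.051 (adjusted p = 0.026), and its groups overlapped at all hours, although 8, 5 and 8 of 8 treated animals exceeded the control on their array. The fifth-hour difference of *Aldoc* did not pass the threshold without any one of the 3 slides (adjusted p from 0.053 to 0.3 by limma), and that of the ninth hour passed in only 1 of these omissions. With Aquantile normalization the log2 fold changes of *Aldoc* (mean intensity 72568) were 0.41 ± 0.045 (adjusted p = 1.5e-10), 0.37 ± 0.045 (adjusted p = 2e-09) and 0.35 ± 0.045 (adjusted p = 1.7e-08), over 1.5 times those above, and its other probe gave 0.21 ± 0.055 (adjusted p = 0.0035), 0.17 ± 0.055 (adjusted p = 0.018) and 0.15 ± 0.055 (adjusted p = 0.042). *Gldc*, the glycine decarboxylase, went the other way, with signal intensities between 2004 and 2628 (median 2174) in control and between 1473 and 2122 (median 1582) in treated animals in the first hour. The groups overlapped, the treated animal was lower on 7 of 8 arrays, and the log2 fold change was -0.38 ± 0.072 (adjusted p = 7.8e-05) in the first, -0.24 ± 0.072 (adjusted p = 0.0099) in the fifth and -0.12 ± 0.072 (adjusted p = 0.27) in the ninth hour. Its first-hour and fifth-hour calls were each kept in 2 of 3 omissions of a slide.

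**Figure D3:**
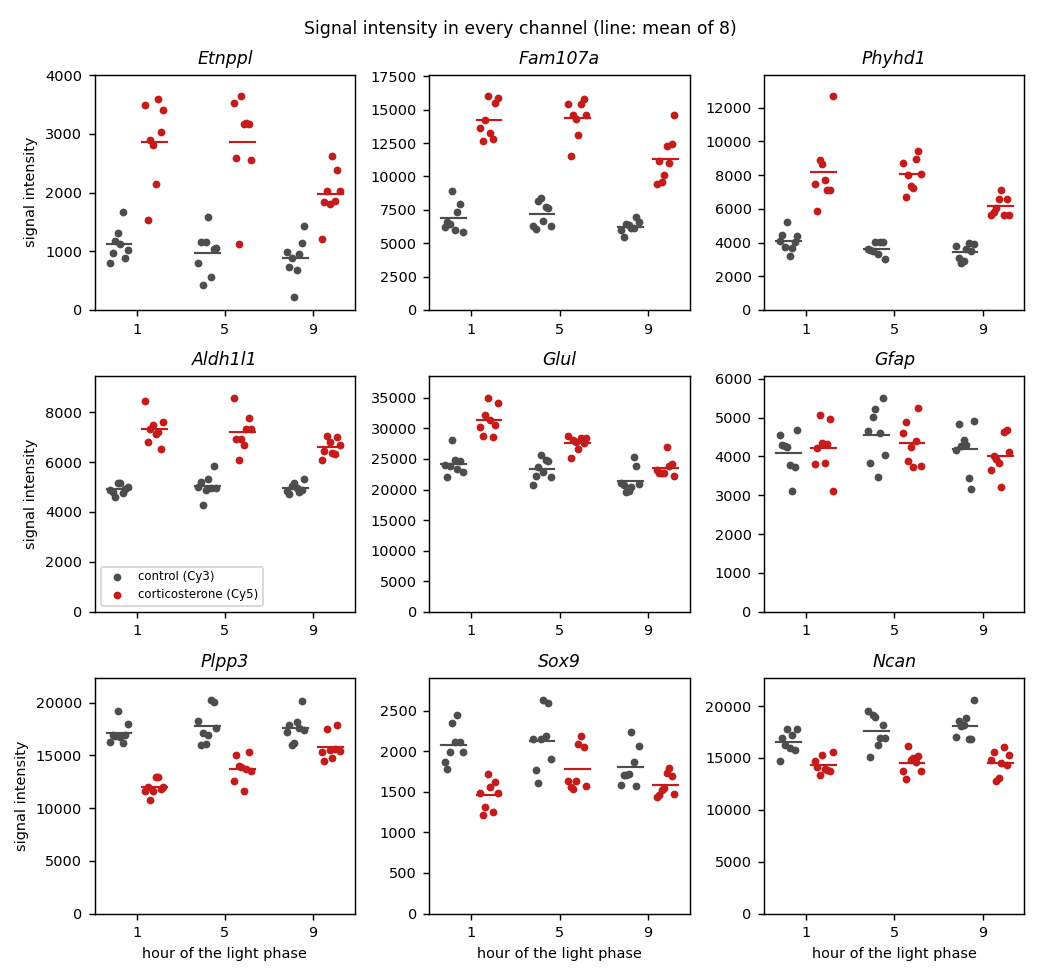
Signal intensities of all animals are plotted on linear axes from 0 for 9 genes at the first, the fifth and the ninth hour, with control animals (Cy3) in grey, corticosterone-treated animals (Cy5) in red and the mean of 8 animals as a line. *Fam107a*, *Phyhd1* and *Aldh1l1* form separate groups at each hour, *Gfap* overlaps at each hour, and the gap of *Plpp3* and *Glul* narrows from the first to the ninth hour.

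Promoter windows of *Fam107a*, *Etnppl* and *Plpp3*, a lipid enzyme gene that fell, are shown because these genes lay at the opposite ends of the set in the first hour and shared or lacked the half-site of the glucocorticoid receptor. The sequences come from RefSeq (GRCm38.p6), span 250 bases before to 50 bases after an annotated start, run 5′ to 3′ on the strand of the gene, and carry the half-site (agaaca, or tgttct on the other strand) in capitals. *Fam107a* has 3 annotated windows, of which 2 nearly coincide (chr14:8309728-8310027, minus strand, is printed) and 1 lies elsewhere (chr14:8317558-8317857, minus strand). *Etnppl*, with 2 windows that overlap and both lack the half-site, is given by chr3:130617198-130617497 (plus strand) and *Plpp3* by chr4:105157097-105157396 (plus strand).
*Fam107a*, window with half-sites: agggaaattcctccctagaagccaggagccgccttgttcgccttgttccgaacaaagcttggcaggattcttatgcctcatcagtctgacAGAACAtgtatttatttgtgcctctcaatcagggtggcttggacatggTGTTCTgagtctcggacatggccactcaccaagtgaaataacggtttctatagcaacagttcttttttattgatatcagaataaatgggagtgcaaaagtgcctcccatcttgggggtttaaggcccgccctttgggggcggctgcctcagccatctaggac
*Fam107a*, other window: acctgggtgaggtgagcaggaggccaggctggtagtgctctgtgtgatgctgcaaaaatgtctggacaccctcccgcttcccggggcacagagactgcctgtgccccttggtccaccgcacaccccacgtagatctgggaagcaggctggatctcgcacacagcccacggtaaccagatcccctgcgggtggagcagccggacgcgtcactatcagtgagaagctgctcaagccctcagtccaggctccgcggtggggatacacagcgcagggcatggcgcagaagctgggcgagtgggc
*Etnppl*: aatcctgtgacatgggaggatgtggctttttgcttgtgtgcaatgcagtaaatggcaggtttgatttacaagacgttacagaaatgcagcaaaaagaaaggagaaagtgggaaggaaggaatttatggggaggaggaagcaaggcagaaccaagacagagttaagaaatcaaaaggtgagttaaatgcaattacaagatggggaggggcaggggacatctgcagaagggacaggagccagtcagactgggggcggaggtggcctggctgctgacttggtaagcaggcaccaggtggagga
*Plpp3*: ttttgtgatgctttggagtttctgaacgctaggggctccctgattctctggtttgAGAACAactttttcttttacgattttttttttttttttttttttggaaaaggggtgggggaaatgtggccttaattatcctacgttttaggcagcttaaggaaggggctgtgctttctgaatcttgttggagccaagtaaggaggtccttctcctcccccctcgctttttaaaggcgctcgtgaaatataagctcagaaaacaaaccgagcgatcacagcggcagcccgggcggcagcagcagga

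The half-site occurred in 10 of 50 windows of the 38 members that have one in the table (20%), against 6233 of 32851 windows of all genes (19%). Of the 11 members higher at all hours, 1 (*Fam107a*) had it in a window, and of the 9 members with a window that were lower at 1 hour or more and higher at none, 3 had it. A pair of half-sites as an inverted repeat (AGAACA, then 3 bases, then TGTTCT) was found in no window of a member and in 3 windows of all genes (0.00913%). The half-site of NFI factors (TTGGC, or GCCAA on the other strand) was found in 31 of 50 member windows (62%) and in 46.7% of all windows. Both strands were searched, the inverted repeat contains the half-site, and a match or its absence in 300 bases is a description of these letters only.

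Of 3 transcription regulators, none was higher at an hour and both *Sox9* and *Id4* were lower at some. *Sox9*, the factor that sets up and maintains the astrocyte fate, had signal intensities between 1781 and 2453 (median 2053) in control and between 1209 and 1722 (median 1489.6) in treated animals in the first hour. The groups did not overlap in the first hour and overlapped later, and the log2 fold change was -0.52 ± 0.078 (adjusted p = 1.6e-06) in the first, -0.25 ± 0.078 (adjusted p = 0.014) in the fifth and -0.19 ± 0.078 (adjusted p = 0.085) in the ninth hour. The fifth-hour call was kept in 0 of 3 omissions of a slide (adjusted p by limma 0.066 to 0.084). The dimmer *Sox9* probe gave 0.017 ± 0.088 (adjusted p = 0.91), 0.081 ± 0.088 (adjusted p = 0.54) and 0.28 ± 0.088 (adjusted p = 0.024), so that the probes of this gene disagreed. *Id4*, an inhibitor of basic helix-loop-helix factors, had signal intensities between 2137 and 2634 (median 2307) in control and between 1597 and 2187 (median 1928) in treated animals in the ninth hour. Its log2 fold change went from 0.062 ± 0.054 (adjusted p = 0.44) in the first to -0.17 ± 0.054 (adjusted p = 0.017) in the fifth and -0.31 ± 0.054 (adjusted p = 2.9e-05) in the ninth hour, and the fifth-hour difference passed the threshold in 1 of 3 omissions of a slide and came to 0.047 within slide 1. *Id3*, a related inhibitor, had -0.16 ± 0.073 (adjusted p = 0.1), -0.029 ± 0.073 (adjusted p = 0.82) and -0.18 ± 0.073 (adjusted p = 0.066).

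In the group of 5 lipid enzymes, *Plpp3* fell at all hours (the ninth-hour call was lost whichever slide was left out), *Acsl6* was lower and *Lcat* higher at 1 hour, and the other members did not pass the threshold. *Plpp3*, a phosphatase that degrades lysophosphatidic acid and related lipids outside the cell, had signal intensities between 16129.9 and 19170.4 (median 16857) in control and between 10782 and 12919 (median 11879) in treated animals in the first hour. The groups were separate in the first and the fifth hour and overlapped in the ninth, when the treated animal was lower on 7 of 8 arrays. The log2 fold change was -0.52 ± 0.051 (adjusted p = 2.8e-11) in the first, -0.38 ± 0.051 (adjusted p = 1.2e-07) in the fifth and -0.15 ± 0.051 (adjusted p = 0.023) in the ninth hour. Without 1 slide, the ninth-hour value was -0.21 to -0.13 (adjusted p by limma 0.081 to 0.16). *Acsl6*, an acyl-CoA synthetase, was lower in the first hour with -0.12 ± 0.041 (adjusted p = 0.019), and *Lcat*, which esterifies cholesterol, was higher in the ninth hour with 0.22 ± 0.08 (adjusted p = 0.04). The call of *Acsl6* was kept in 0 of 3 omissions of a slide (adjusted p by limma 0.077 to 0.11) and that of *Lcat* in 1. *Acsbg1* and *Pla2g7* had values between 0.021 and 0.16 and did not pass the threshold at any hour.

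Transporters and junction proteins formed the group with the fewest differences. *Cldn10*, a claudin, was lower in the first hour with -0.17 ± 0.036 (adjusted p = 0.00026) and in the fifth hour with -0.19 ± 0.036 (adjusted p = 2.9e-05), on 8 of 8 arrays each, although its groups overlapped and its first-hour call was kept in 2 of 3 omissions of a slide. The other members, *Mlc1* and *Hepacam* (partners in a membrane complex of end feet), *Slc39a12*, *Slc25a18*, *Slc15a2* and *Ttyh1*, passed the threshold at no hour, and their log2 fold changes ranged from -0.16 to 0.26 over the hours. The fifth-hour value of *Slc15a2*, a peptide transporter, was 0.26 ± 0.10 (adjusted p = 0.054), with the treated animal higher on 6 of 8 arrays. On array 7 of the fifth hour, the spots of *Acsbg1*, *Slc39a12* and *F3* were low in both channels (for *Acsbg1* 1758.9 in control and 1872 in treated, against medians of 4850.0 and 5038), and their log2 ratios there were 0.090, -0.11 and -0.49.

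Receptors and signalling proteins moved in both directions. *Daam2*, a formin of Wnt signalling, had signal intensities between 2334 and 2778 (median 2558) in control and between 3101 and 4406 (median 3750.4) in treated animals in the first hour. Its groups were separate in the first and the fifth hour, and the log2 fold changes were 0.53 ± 0.056 (adjusted p = 3.3e-10), 0.52 ± 0.056 (adjusted p = 1e-09) and 0.35 ± 0.056 (adjusted p = 1.2e-05). *Ntsr2*, a receptor for neurotensin, rose by a smaller and steady amount of 0.20 ± 0.039 (adjusted p = 4.8e-05), 0.18 ± 0.039 (adjusted p = 0.00019) and 0.16 ± 0.039 (adjusted p = 0.0016), and the ninth-hour value was 0.11 ± 0.038 (adjusted p = 0.058) with the authors' log2 ratios. *Ndrg2* was higher in the first hour with 0.19 ± 0.055 (adjusted p = 0.0081) and in the fifth with 0.14 ± 0.055 (adjusted p = 0.048), and reached 0.13 ± 0.055 (adjusted p = 0.094) in the ninth. Its call was kept in 1 of 3 omissions of a slide for the first hour (adjusted p by limma 0.017 to 0.11) and in 0 for the fifth (0.13 to 0.18).

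*F3*, which codes tissue factor, the starter of blood coagulation, had a log2 fold change of 0.079 ± 0.10 (adjusted p = 0.61) in the first hour. It was lower in the fifth hour with -0.36 ± 0.10 (adjusted p = 0.0059) and in the ninth hour with -0.31 ± 0.10 (adjusted p = 0.024), on 8 of 8 arrays each. In the ninth hour it had signal intensities between 3714 and 4516 (median 4050.4) in control and between 3064 and 3503 (median 3275) in treated animals, without overlap, although the ninth-hour difference passed the threshold in only 1 of 3 omissions of a slide and the fifth-hour difference in 2. *Tril*, a partner of Toll-like receptors, was lower in the fifth hour with -0.24 ± 0.083 (adjusted p = 0.032), a call kept in 0 of 3 omissions of a slide (adjusted p by limma 0.063 to 0.16), and *Gpr37l1*, an orphan receptor of astrocytes, had values between -0.0031 and 0.12 that did not pass the threshold.

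Secreted and matrix proteins included 1 gene that rose and several that fell. *Htra1*, a secreted serine protease, had signal intensities between 15893 and 21460.2 (median 18049) in control and between 24957 and 37618 (median 26311) in treated animals in the first hour. The groups were separate in the first and the fifth hour but not in the ninth, and the log2 fold change was 0.60 ± 0.064 (adjusted p = 3.4e-10), 0.45 ± 0.064 (adjusted p = 4.7e-07) and 0.094 ± 0.064 (adjusted p = 0.32) at these hours. *Ncan*, the proteoglycan neurocan of perineuronal matrix, had signal intensities between 16844 and 20639 (median 18139) in control and between 12761 and 16040.1 (median 14651) in treated animals in the ninth hour. The treated animal was lower on 8 of 8 arrays at all hours, and the log2 fold change of *Ncan* was -0.21 ± 0.048 (adjusted p = 0.00063) in the first, -0.28 ± 0.048 (adjusted p = 1.2e-05) in the fifth and -0.32 ± 0.048 (adjusted p = 2.1e-06) in the ninth hour. *Bcan*, the proteoglycan brevican, had -0.11 ± 0.051 (adjusted p = 0.12), -0.052 ± 0.051 (adjusted p = 0.48) and -0.13 ± 0.051 (adjusted p = 0.053).

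*Cst3*, the protease inhibitor cystatin C, had log2 fold changes of -0.15 ± 0.041 (adjusted p = 0.0045), -0.22 ± 0.041 (adjusted p = 2.8e-05) and -0.24 ± 0.041 (adjusted p = 1.2e-05), of which the first-hour and ninth-hour calls were each kept in 2 of 3 omissions of a slide. With Aquantile normalization the values of *Cst3* (mean intensity 64355) were 0.039 ± 0.04 (adjusted p = 0.42), -0.038 ± 0.04 (adjusted p = 0.72) and -0.056 ± 0.04 (adjusted p = 0.39), and with the authors' log2 ratios no call was made either. *Sparcl1*, a matrix protein that promotes synapse formation, had -0.13 ± 0.068 (adjusted p = 0.16), -0.23 ± 0.068 (adjusted p = 0.0099) and -0.20 ± 0.068 (adjusted p = 0.03), and its fifth-hour and ninth-hour calls were each kept in 1 of 3 omissions. The direction of *Sparcl1* (mean intensity 110057) turned under Aquantile normalization, to 0.15 ± 0.068 (adjusted p = 0.078) in the first, 0.074 ± 0.068 (adjusted p = 0.33) in the fifth and 0.083 ± 0.068 (adjusted p = 0.38) in the ninth hour. Lower values were also found for *Lgi4* in the first hour, at -0.33 ± 0.073 (adjusted p = 0.00057), and for *Chrdl1*, a secreted antagonist of bone morphogenetic proteins, in the fifth hour, at -0.48 ± 0.11 (adjusted p = 6e-04). The mean signal intensity of the *Chrdl1* probe was 89.4, so its ratio rests on a weak signal.

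Whether the effect of corticosterone differed between hours was tested directly as the difference of the ninth-hour and the first-hour log2 fold changes, in which a constant dye preference cancels. This difference was significant for 7 of 42 genes, 3 positive and 4 negative, against 0.827% of all probes and 2.22% of the named genes with an intensity of at least 500. For *Htra1* it was -0.51 ± 0.09 (adjusted p = 0.00022), and -0.43 ± 0.081 (adjusted p = 0.00059) without first-hour array 8. Its log ratio lay between 0.28 and 1.16 on the arrays of the first and between -0.083 and 0.24 on those of the ninth hour. The difference was significant without each slide in turn, at -0.56 to -0.44. *Btbd17*, a BTB domain protein, had a difference of 0.48 ± 0.094 (adjusted p = 0.00092), from -0.24 ± 0.066 (adjusted p = 0.0064) in the first to 0.25 ± 0.066 (adjusted p = 0.0059) in the ninth hour. The treated animal was lower on 7 of 8 arrays in the first and higher on 8 of 8 in the ninth hour, so that the direction turned. In the ninth hour *Btbd17* had signal intensities between 637 and 708 (median 655) in control and between 694 and 913 (median 774) in treated animals, with overlap of the groups.

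*Plpp3* returned towards the control level, with a difference of 0.36 ± 0.072 (adjusted p = 0.001). *Lgi4*, a secreted protein of the leucine-rich glioma inactivated family, had signal intensities between 2699.6 and 3737 (median 2952) in control and between 1844 and 2784 (median 2432) in treated animals in the first hour, with overlap. It went from this lower level to a log2 fold change of 0.10 ± 0.073 (adjusted p = 0.34) in the ninth hour, a difference of 0.44 ± 0.10 (adjusted p = 0.012). Differences were negative for *Prodh* at -0.38 ± 0.083 (adjusted p = 0.003), for *Id4* at -0.37 ± 0.076 (adjusted p = 0.0016) and for *Glul* at -0.23 ± 0.066 (adjusted p = 0.049). For *Prodh* and *Glul* this was a decline of a rise, and for *Id4* a fall that was seen late. Each slide left out in turn ended the calls of *Glul* and *Lgi4*, and at least 1 of these omissions ended those of *Btbd17*, *Id4*, *Plpp3* and *Prodh*, with no change of direction. In these omissions, which leave fewer arrays, the difference was -0.269 to -0.193 for *Glul* and 0.397 to 0.457 for *Lgi4*.

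**Figure D4:**
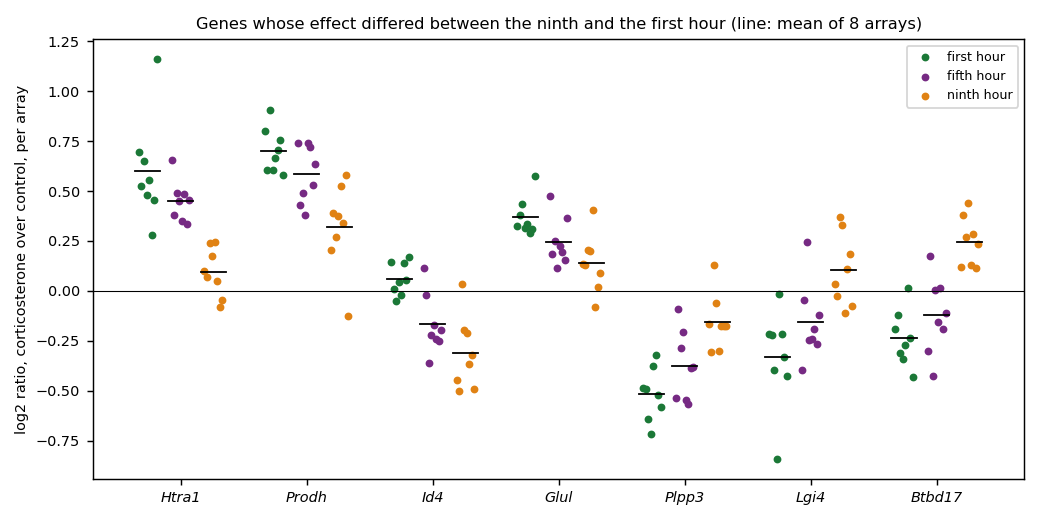
Log2 ratios of corticosterone over control on each array are plotted for the 7 genes whose effect differed between the ninth and the first hour, with 8 arrays an hour and their mean as a line. *Htra1*, *Prodh* and *Glul* decline towards 0, *Plpp3* rises towards 0, *Id4* falls below 0, and *Btbd17* and *Lgi4* cross 0.

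In control animals alone, 2 of 42 genes differed between the ninth and the first hour, against 0.537% of all probes and 1.42% of the named genes with an intensity of at least 500. *Id3* was higher in the ninth hour, with control intensities of 789 to 947 (median 846) in the first and 836 to 1244 (median 1127) in the ninth hour, a log2 difference of 0.35 ± 0.085 (adjusted p = 0.025). *Ezr* was lower, with control intensities of 2448 to 2865 (median 2648) in the first and 2144 to 2513 (median 2267) in the ninth hour, a log2 difference of -0.20 ± 0.051 (adjusted p = 0.026). The groups overlapped for both genes, and neither call was kept without any one of the slides. This comparison lies within the Cy3 channel and between arrays. The median of the set in the control channel was 11.67 ± 0.088 (log2 intensity, SD, n = 8) in the first and 11.61 ± 0.063 in the ninth hour.

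Several probes were available for 16 of the 42 genes, which allowed a check of the values chosen by brightness. Both probes of *Phyhd1* gave the same picture, with 1.01 ± 0.075 (adjusted p = 7.4e-15), 1.15 ± 0.075 (adjusted p = 9e-17) and 0.89 ± 0.075 (adjusted p = 1.4e-12) for the dimmer one. The dimmer probe of *Etnppl* (intensity 43.2) gave 0.85 ± 0.12 (adjusted p = 1.5e-06), 0.54 ± 0.12 (adjusted p = 0.002) and 0.13 ± 0.12 (adjusted p = 0.66) at these hours, with the treated animal higher on 8, 8 and 5 arrays. It was well above background in all treated animals but in only 2, 5 and 5 of 8 control animals, so its fold changes cannot be set against those of the brighter probe. The authors described a further *Etnppl* probe, for transcripts with intronic sequence, that was higher in the first and lower in the ninth hour. Neither probe given here had this pattern. The dimmer probe of *Htra1* gave 0.70 ± 0.12 (adjusted p = 2.6e-05) in the first hour. The other probe of *Fam107a*, assigned to another transcript, gave 0.21 ± 0.086 (adjusted p = 0.065), 0.29 ± 0.086 (adjusted p = 0.0097) and 0.14 ± 0.086 (adjusted p = 0.25). The dimmer probe of *Glul* with intensity 484 gave 0.35 ± 0.075 (adjusted p = 0.00041) in the first and -0.049 ± 0.075 (adjusted p = 0.7) in the ninth hour. For *Gfap*, the probe of the other transcript gave 0.33 ± 0.13 (adjusted p = 0.058), 0.16 ± 0.13 (adjusted p = 0.38) and 0.13 ± 0.13 (adjusted p = 0.53), all above 0 and none past the threshold. Averaged over all probes of a gene, the first-hour value was 0.63 ± 0.061 (adjusted p = 2e-11) for *Fam107a*, 0.32 ± 0.061 (adjusted p = 2.4e-06) for *Daam2* and -0.25 ± 0.059 (adjusted p = 0.00048) for *Sox9*. Calls ended in this way for *Acsl6* in the first hour, which turned to 0.056 ± 0.057 (adjusted p = 0.83), for *Sox9* in the fifth, at -0.084 ± 0.059 (adjusted p = 0.23), and for *Glul* in the ninth, at 0.046 ± 0.049 (adjusted p = 0.52).

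**Figure D5:**
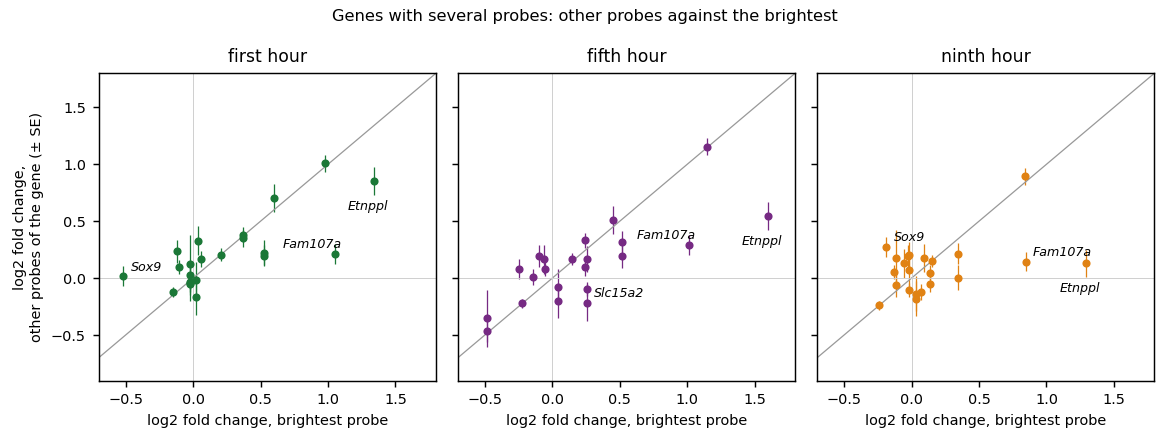
For the 16 genes with several probes, the log2 fold change of each of the 22 other probes (± SE, 8 arrays) is plotted against that of the brightest probe at the first, the fifth and the ninth hour, with a line of equality. In the first and the ninth hour the probes of *Fam107a* and *Sox9* lie away from the line and those of *Phyhd1* near it. The dimmer probe of *Etnppl* is drawn although it was not well above background in all control animals.

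Other astrocyte genes moved in both directions as well, and the shares called among the named genes with an intensity of at least 500 (27.4%, 27.6% and 20.2% at these hours) stand beside them. Of 19 other astrocyte genes measured, 12 differed in the first hour (6 higher and 6 lower, median log2 fold change 0.042), 13 in the fifth (6 and 7, median -0.048) and 9 in the ninth (3 and 6, median -0.0765). Among them *Agt*, angiotensinogen, had the largest log2 fold change at each hour, 0.89 ± 0.12 (adjusted p = 1.5e-07), 1.22 ± 0.12 (adjusted p = 6.6e-11) and 0.88 ± 0.12 (adjusted p = 4.1e-07). The lowest log2 fold changes of these genes were -0.764 in the first, -0.862 in the fifth and -0.707 in the ninth hour. *Aqp4*, the water channel of end feet, which was picked after its values were seen, had -0.86 in the fifth hour. Of 23 genes known from reactive astrocytes, 7 differed in the first (5 higher and 2 lower, median -0.024), 9 in the fifth (6 and 3, median 0.056) and 4 in the ninth hour (3 and 1, median 0.0067). These are 30.4%, 39.1% and 17.4% of the 23 reactive genes, against 20.7%, 20.8% and 15.6% of all named genes, a background without an intensity limit. The ninth-hour share is near both backgrounds. The first-hour share is near that of the named genes with an intensity of at least 500. The largest change among the reactive genes in the first hour was that of *Cxcl10*, a chemokine, at -1.06 ± 0.29 (adjusted p = 0.0068), although the treated animal was lower on only 6 of 8 arrays, the groups overlapped and the mean intensities were 81.4 in control and 31.4 in treated animals, a weak signal.

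Among markers of other cell types, oligodendrocyte genes were called more often (58.3%, 58.3% and 50% at the 3 hours) than the bright named genes above, whereas microglial genes (25%, 25% and 16.7%) were near that background. Endothelial and mural genes were at 50%, 43.8% and 25%, and neuronal genes at 40% in the fifth and 20% in the ninth hour. Of 12 oligodendrocyte genes, 7 differed in the first hour, 5 of them lower, and the median on an array was below 0 on 7 of 8 arrays (range -0.28 to 0.0054). In the fifth hour 7 of them differed, 5 lower (array medians -0.49 to 0.014), and in the ninth 6, 4 lower (-0.43 to 0.10). Of 16 genes of endothelial and mural cells, 8 differed in the first hour, 6 of them lower (array medians -0.35 to 0.12), and of 12 microglial genes 3 were lower (array medians -0.22 to 0.13). The endothelial and mural genes had 7 differences in the fifth hour, 5 lower (array medians -0.23 to 0.052), and 4 in the ninth, 3 lower (-0.17 to 0.14). Of the microglial genes 3 were lower in the fifth (array medians -0.27 to 0.093) and 2 in the ninth hour (-0.26 to 0.067). Of 15 neuronal genes, none passed the adjusted threshold in the first hour by limma's separate channel test (5 with an unadjusted p under 0.05), and 6 were higher in the fifth hour (array medians 0.037 to 0.14) and 3 in the ninth (-0.050 to 0.12). *Ugt8a*, an enzyme of myelin lipid synthesis, had -0.81 ± 0.16 (adjusted p = 0.00025), *P2ry12*, a receptor of resting microglia, -0.49 ± 0.14 (adjusted p = 0.0072), and *Flt1*, a receptor of vascular endothelial growth factor, -0.61 ± 0.074 (adjusted p = 1.5e-08) in the first hour. Of 6 genes of oligodendrocyte precursors, 1 was higher in the fifth and 1 lower in the ninth hour. The 7 genes of the choroid plexus and the 3 of blood cells did not pass the adjusted threshold at any hour by limma, and 3 of the blood genes had an unadjusted p under 0.05 in the fifth hour. The array medians of the astrocyte set over the same first-hour arrays ran from -0.036 to 0.13. The part of other cell types in the values of the members was not tested.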

How the data were processed

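Hippocampal RNA of 48 mice was hybridised to 24 two-colour Agilent arrays, 1 control animal (Cy3) and 1 corticosterone-treated animal (Cy5) on each. The deposited scanner files hold the authors' median spot and background intensity values, and a deposited series table holds the authors' normalized log2 ratios. The members of the set, the other gene lists and the tests were chosen with earlier results of these data known.

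Control spots (3671) and outlier spots were left out. Background was corrected with normexp, adding an offset of 50 before testing and none (0) where fold changes and SE were estimated. Arrays were normalized by loess within and by quantiles between arrays, copies of a probe were averaged, and 56605 probes were fitted with limma's separate channel analysis (6 groups, intraspot correlation 0.279, prior degrees of freedom 4.89). P-values were adjusted by Benjamini-Hochberg over all probes, with a threshold of 0.05. Signal intensities and log2 values in the text are normalized without offset. SE and p-values rest on the spread between animals. Groups held siblings from several litters, and litter was not part of the fit. Replicates were numbered in accession order, so the numbers name arrays only. The fit was tested on simulated data for the first hour (6000 probes, 200 of them changed). There it called 94% of changes of 0.35 and 100% of changes of 1 (log2). Unchanged probes made up 7.62% of its calls, a share above the threshold of 0.05. The simulated noise was independent between arrays, without slide or dye structure, and a smaller share of probes was changed than was called in the data. These rates therefore need not hold for the data. Software was R 4.3.3 with limma 3.58.1 and statmod 1.5.0, and Python 3.11.15 with matplotlib 3.10.9.

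Names came from RefSeq accessions (GRCm38.p6), which matched 34566 probes. The log2 ratios recomputed with the offset of 50 differed from the authors' table by a median of 0.0101 (lowest correlation of an array 0.988), and those without offset, from which the printed fold changes come, by 0.0618. The medians of its columns were 0.0024 to 0.0089, and its direction was that of Cy5 over Cy3 by this comparison. The methods give log2 red over green ratios after normexp, loess and quantile normalization, while the offset behind the deposited table is not given in the sources used here.

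Full values were given for the 7 defining markers, for members with an adjusted p under 0.05, a log2 fold change of at least 0.32 in size and the same direction on 8 of 8 arrays, for members that differed between hours, and for members whose probes gave opposite calls. Values of other members illustrate their role group. Of the other lists, the largest significant change per hour was taken. Alternatives covered offsets, background correction, normalization, processed signals, dim probes, log ratios, slides, variance trend, the authors' ratios, the choice of probe and outlier spots. The omissions of the first-hour arrays 6 and 8 were chosen after seeing the data.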

Additional observations from a re-analysis of the deposited data

Results flagged for a closer look

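On 3 of 66 groups of 8 arrays, 1 array stood apart from the others by Dixon's criterion, which chance alone would meet in about 1 of 20 groups. First-hour array 8, on slide 3, had a log2 ratio of 0.609 for *Aldoc*, against 0.0312 to 0.283 on the other arrays. The same array had 1.16 for *Htra1*, against 0.282 to 0.696. Without it, the first-hour log2 fold change (± SE, limma) was 0.15 ± 0.047 (adjusted p = 0.015) for *Aldoc* and 0.52 ± 0.059 (adjusted p = 2.4e-09) for *Htra1*, and the difference between hours was -0.43 ± 0.081 (adjusted p = 0.00059) for *Htra1*. First-hour array 6, on slide 3, had -0.971 for *Sox9*, against -0.601 to -0.323, and without it the fold change of *Sox9* was -0.45 ± 0.081 (adjusted p = 5.3e-05).

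The effect of corticosterone differed between the ninth and the first hour, by the limma test of the difference itself, for 7 genes. The differences in log2 fold change were -0.507 for *Htra1*, -0.383 for *Prodh*, -0.375 for *Id4*, -0.234 for *Glul*, 0.363 for *Plpp3*, 0.436 for *Lgi4* and 0.483 for *Btbd17*.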

How the results depend on the processing

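Each array paired 1 control with 1 treated animal, and the paired test on the log ratios of the arrays called 23, 23 and 19 members at the 3 hours and 7 for the difference between hours. The number of members that differed was most affected by using 1 slide alone, with fewer arrays. Within slides 1, 2 and 3 it was 9, 12 and 12 in the first hour (22 with all arrays), 10, 6 and 10 in the fifth (24) and 12, 1 and 1 in the ninth (19). Within each slide it was 0 by limma both for control animals between hours and for the difference of effects between hours, with 6, 3 and 3 and with 11, 10 and 7 members at an unadjusted p under 0.05. Leaving out each slide in turn gave 12 to 17 members in the ninth hour, 2 to 4 for the difference of effects, and 0 for control animals (unadjusted 7, 11 and 9). Of the original calls, 16 of 22, 16 of 24, 11 of 19 and, for the difference, 1 of 7 were kept in all of these omissions. For control animals 1 member passed when testing used an offset of 0, and 1 without first-hour array 6. Relative to the set median, 8 members departed in the ninth hour without slide 1.

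The set median of the fifth hour (-0.0518) was 0.0371 within slide 1, -0.0022 within slide 3, -0.0152 with the authors' log2 ratios, -0.0158 with the mean over all probes of a gene and 0.0285 with all probes counted singly, and the omissions of a slide gave -0.0564 to 0.00074. The fold change of *Id4* in the fifth hour turned to 0.0473 within slide 1, and that of *Acsl6* in the first hour to 0.0559 with the mean over all probes. With Aquantile normalization and with the authors' log2 ratios, *Cst3* turned to 0.0391 and 0.0492 in the first hour, and *Sparcl1* (-0.129 and not called in the first hour) to 0.149 and 0.161 in the first, 0.0745 and 0.0985 in the fifth and 0.0834 and 0.0893 in the ninth. Of the values of the 42 members under the alternatives, 3409 stayed on their side of the threshold, 244 no longer passed it, 33 newly passed it and 8 reversed. The 3409 include values that passed neither with the main settings nor under the alternative, so they do not measure the stability of the calls. The causes of these shifts were not tested, and with 8 arrays an hour, changes near the SE of a gene were not detectable.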
